A study of Bos taurus with 16 samples.

Results

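LY2955303 (LY), a small molecule inhibitor of retinoic acid receptor gamma (RARγ), was added to in vitro produced bovine embryos from the 16-cell stage, and the day 8 blastocysts (cell16_LY) were compared with blastocysts of the vehicle group (LY_DMSO). The comparison holds 2 single-blastocyst libraries per group, 4 of the 16 libraries of the series, and its members are all libraries with these names. The question is which transcripts of the blastocyst differ when RARγ is inhibited only after the 16-cell stage. All embryos are wild type, and the labels put all libraries in batch 1. The labels state neither the LY concentration of cell16_LY nor the fertilization batch of each blastocyst, and LY_DMSO is read here as the DMSO vehicle of the same experiment. By the methods of the study, the culture medium held LIF, FGF2 and IGF1 in treated and vehicle embryos alike. Blastocysts treated from the 2-cell stage (cell2_LY, 2 libraries) share the table and the estimate of the spread. Blastocysts with 10 μM LY (LY10, 3 libraries) and their own vehicle group (DMSO, 3 libraries) come from a separate table. By the study, LY10 embryos were treated from the 2-cell stage, as those of cell2_LY were.

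Retinoic acid, made from vitamin A by retinaldehyde dehydrogenases, binds nuclear receptors of the RAR family, which sit on DNA as dimers with RXR partners and switch target genes such as RARB, CYP26A1 and the HOX genes. The 16-cell stage follows the main wave of bovine embryonic genome activation and precedes the blastocyst, in which an outer trophectoderm surrounds a cavity and an inner cell mass of epiblast and hypoblast. The ruminant trophectoderm is known for secreting interferon tau, the signal by which the conceptus maintains pregnancy, and for pregnancy-associated glycoproteins and trophoblast Kunitz domain proteins. Energy use also shifts at this time, from pyruvate in the cleaving embryo to glucose in the blastocyst.

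The authors' FPKM values were turned back into reads, and a normalized count here is the number of reads on a gene scaled to a common library size of 15246235. Depth was 17251815 and 13067122 reads on genes in cell16_LY and 17343140 and 16883427 in LY_DMSO. The limma fit, on log2(normalized count + 1), covered the 14529 of 37429 genes whose mean over the 6 libraries reached 10. The 2 cell16_LY libraries were alike (Spearman's rho of 0.968 across genes) and the 2 LY_DMSO libraries less so (0.935). Of these 4 libraries, LY_DMSO replicate 2 stood farthest out on the first principal component of the 6 libraries, which held 38.0% of the variance. Reads of the Y-linked genes DDX3Y, USP9Y and ZFY were present in cell16_LY replicate 2 and LY_DMSO replicate 1. They were absent from cell16_LY replicate 1 and LY_DMSO replicate 2, so each group held 1 blastocyst with and 1 without such reads. The X-linked gene XIST had 2114 and 372 normalized counts in cell16_LY and 2438 and 5142 in LY_DMSO. LY_DMSO replicate 1 thus had both Y-linked and many XIST reads, and XIST does not split the 4 libraries as the Y-linked genes do. Both cell2_LY blastocysts had Y-linked reads, with XIST at 3133 and 47.3. Nothing in the labels says that blastocysts of a group came from separate fertilizations, so that p-values measure only the spread between these embryos.

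The blastocyst markers were present. The keratin gene KRT18, an early marker of the trophectoderm, stood at 29320 and 32754 normalized counts in cell16_LY and 35101 and 25231 in LY_DMSO. The pluripotency gene POU5F1 stood at 3994 and 4797 in cell16_LY and 6519.5 and 3959.7 in LY_DMSO. Of 26 trophectoderm genes, 1 to 2 were at 0 in a library of these 4, and their summed level was 177932 and 165275 normalized counts in cell16_LY and 151899 and 130375 in LY_DMSO. EOMES, HAND1, SOX17, FOXA2, TTR, NODAL and FGF4 were at or near 0 in all 4 blastocysts. Of 17 cumulus cell genes, 4 to 7 were at 0 in a library, AMH among them in all 4, and HAS2 and GREM1 had at most 2.79 normalized counts. The summed cumulus list was 4460.4 and 1651 in cell16_LY and 625.4 and 2231 in LY_DMSO, most of it the steroid synthesis genes CYP11A1 and HSD3B1, and its part in the results below was not tested. In whole blastocysts, fewer cells of a type and less RNA per cell cannot be told apart.

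A gene is called here when its unadjusted p from limma was under 0.05 and its log2 fold change was above 1 or below -1, the threshold the study used. By this rule 472 genes were higher in cell16_LY (3.25% of those tested) and 286 were lower (1.97%). These percentages are the background against which the gene groups below are read. None had a Benjamini-Hochberg adjusted p under 0.05 by limma (smallest 0.0604, and 0 genes with voom weights), whereas 1107 genes had an unadjusted p under 0.05. The groups did not overlap for 42.9% of all genes tested, and with 2 against 2 an exact permutation test of a single gene cannot go below 0.333. They did not overlap in any of the 758 called genes, so separation of the 4 blastocysts adds nothing to a call. Over all genes tested, log2 fold changes had a median of -0.01. Without cell16_LY replicate 1, 175 genes were higher and 175 lower. Without LY_DMSO replicate 1 the counts were 810 and 547, and without LY_DMSO replicate 2 they were 535 and 179. The sentences below say which calls were lost when 1 of the 4 blastocysts was left out, with the log2 fold change without it in parentheses. Gene models without a proper name (LOC symbols and unnamed models) made up 39.9% of the lower genes, 17.2% of the higher genes and 18.7% of all genes tested.

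**Figure D1:**
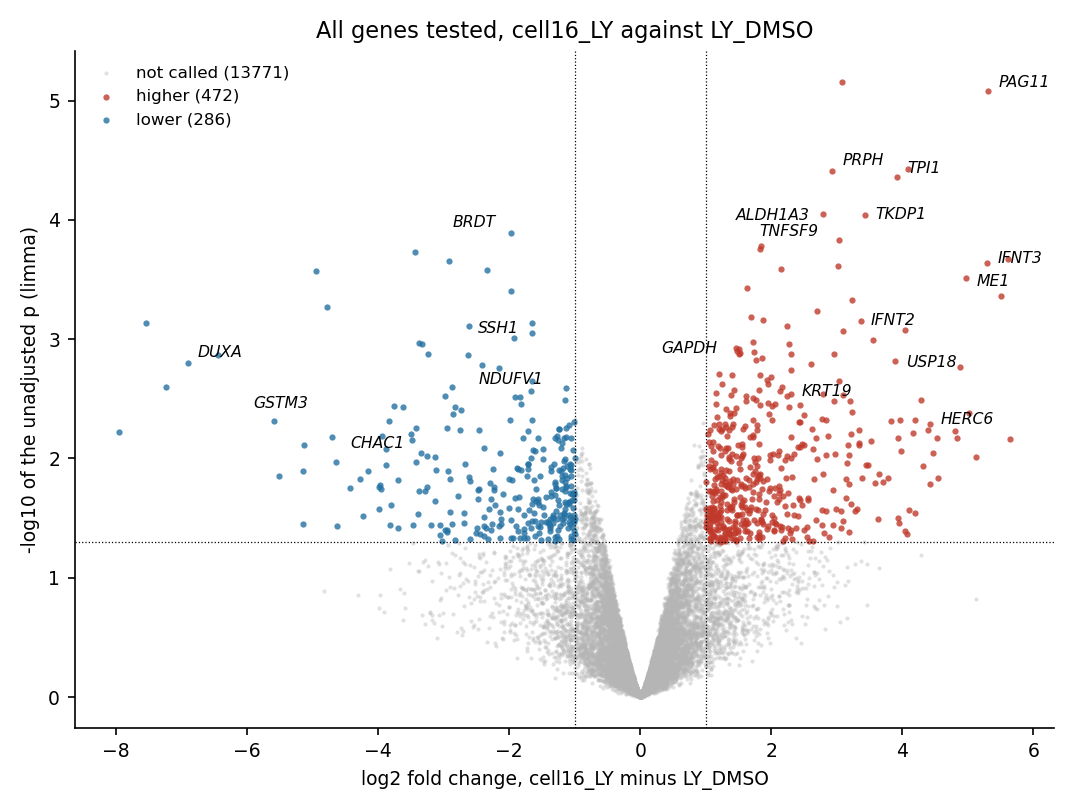
Each point is 1 of the 14529 genes tested, with the log2 fold change of cell16_LY over LY_DMSO on the x axis and −log10 of the unadjusted limma p on the y axis. The 472 genes called higher are red, the 286 called lower are blue, dotted lines mark the thresholds, and PAG11, PRPH and TPI1 stand near the top on the right while DUXA stands far left.

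Among the secreted products of the trophoblast, 3 families held called genes. Their list had the highest median difference of the gene lists, over the 12 of 38 members tested, a value that the filter can raise. PAG11, a pregnancy-associated glycoprotein gene on chromosome 29 (39438824 to 39456485, the RefSeq annotation of ARS-UCD2.0), had 446 and 398 normalized counts in the 2 cell16_LY blastocysts and 11.1 and 8.32 in the 2 LY_DMSO blastocysts. Both treated embryos were far above both controls, and the log2 fold change was 5.31 ± 0.56 (SE, adjusted p = 0.0604). TKDP1, which encodes a trophoblast Kunitz domain protein (chromosome 13, 74075296 to 74092083), stood at 283 and 294 against 18.5 and 36.0, a log2 fold change of 3.43 ± 0.50 (adjusted p = 0.187). The interferon tau gene IFNT3 (chromosome 8, 22582520 to 22583580) had 7469 and 3608 normalized counts in cell16_LY and 409 and 41.6 in LY_DMSO. IFNT2, of the same cluster on chromosome 8, had 245 and 105 against 16.7 and 12.9. Their log2 fold changes were 5.30 ± 0.87 and 3.36 ± 0.65, and the 4 calls in this paragraph held without each of the 4 blastocysts in turn.

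Some related gene models moved with them. Of 8 tested models whose description names interferon tau, 4 were higher and 0 lower, and the summed level of all 9 such models was 13491 and 6767 in cell16_LY against 767.2 and 114.6 in LY_DMSO. LOC112445660, annotated as interferon tau-1 on an unplaced sequence, had 5370.5 and 2662 normalized counts against 255 and 22.2. The interferon tau gene models share most of their sequence, so the split of reads between them is uncertain and their calls are not independent of each other. Of 4 tested models of the Kunitz domain family, 3 were higher, TKDP1 among them. The filter took the mean over all 6 libraries, so a model low elsewhere can be tested only because cell16_LY is high. LOC132346840 is such a model, with 0 and 7.89 normalized counts in cell2_LY. The shares of tested models that were higher are therefore no measure of the families. LOC618696, annotated like TKDP1, stood at 1005 and 711 against 82.5 and 17.6. LOC132346840, its neighbour, stood at 165 and 132 against 9.27 and 8.32. PAG2, the second tested model of the glycoprotein family, was not called, at 958 and 1414 against 496 and 443 (log2 fold change 1.31 ± 0.70, adjusted p = 0.709). The list of secreted trophoblast products had 12 tested members of 38, with 4 higher, 0 lower and a median of 1.58 on the log2 scale. The same filter can raise this median, so it is no measure of the whole list. IFN-TAU, at 7.44 and 3.50 against 16.7 and 4.62, had the lowest value of the list, -0.69, with no call.

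**Figure D2:**
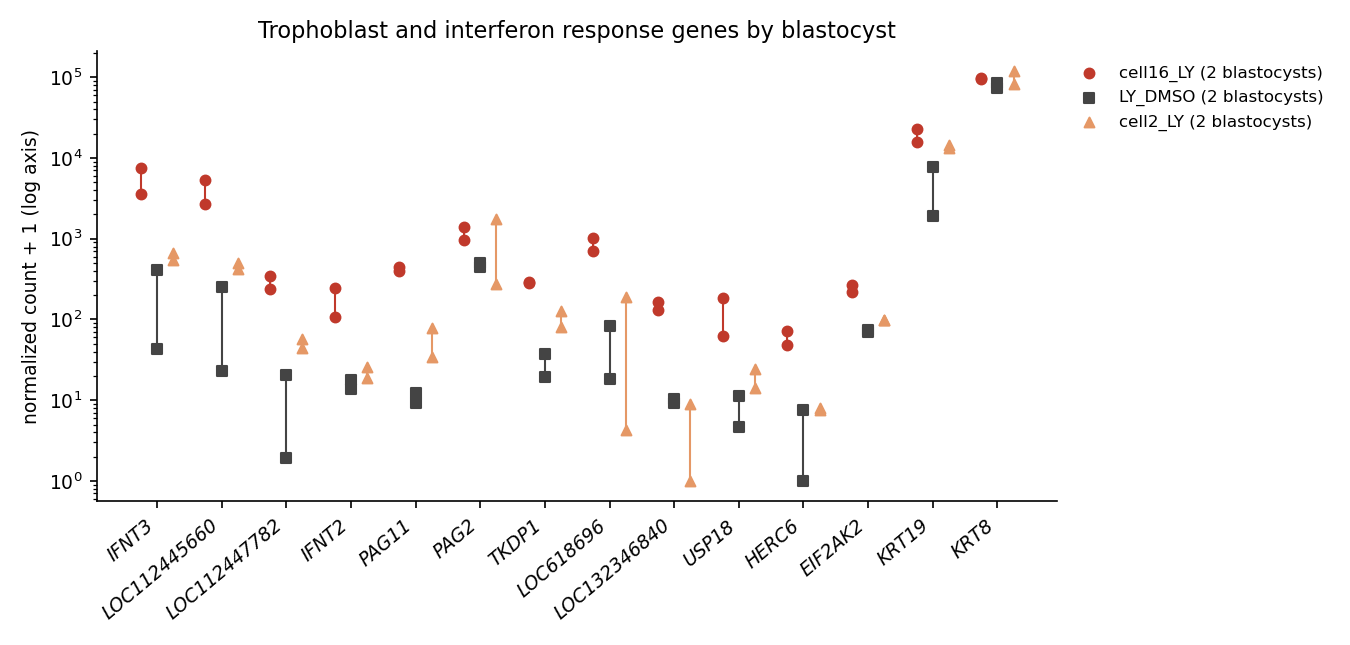
Normalized count + 1 on a log axis in each of the 6 blastocysts of the table, with a line joining the 2 of a group. Of the 9 interferon tau, PAG and Kunitz domain genes shown, all but PAG2 are called genes, and no called gene overlaps between cell16_LY and LY_DMSO. Some tested models of these families that are not drawn, LOC101908039 and LOC404061 among them, do overlap. KRT8, a keratin gene of the trophectoderm, is level between the groups.

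Interferon tau acts on cells through the type I interferon receptor and switches on interferon-stimulated genes. Of 17 tested members of that list, 3 were higher and 1 lower, and the median difference was 0.22 on the log2 scale. USP18, a protease that removes ISG15 and damps the response, had 183 and 61.8 normalized counts against 10.2 and 3.70 (log2 fold change 3.89 ± 0.85). EIF2AK2, the double-stranded RNA kinase PKR, had 265 and 220.4 against 72.3 and 68.4, and the groups were far apart. HERC6, related to the ISG15 ligases, had 71.6 and 46.7 against 0 and 6.47. IRF1, an interferon-induced transcription factor, fell from 166 and 97.0 to 59.5 and 42.0. MX1 was high in 1 treated blastocyst only (189.6 and 15.2 against 17.6 and 6.47, adjusted p = 0.705), and ISG15 had at most 14.9 normalized counts. HERC6 lost its call without cell16_LY replicate 1 (4.12), and IRF1 without cell16_LY replicate 1 (-1.57), cell16_LY replicate 2 (-1.08) or LY_DMSO replicate 1 (-0.94).

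Among 23 tested trophectoderm genes, 3 were higher and 1 lower. KRT19, a keratin of simple epithelia, had 22965 and 15755 normalized counts in cell16_LY and 7651 and 1932 in LY_DMSO (log2 fold change 2.31 ± 0.56), and the call held without each blastocyst. ID2, an inhibitor of helix-loop-helix factors, had 1002 and 758 against 573 and 284. The zinc finger gene OVOL1 had 140.4 and 209 against 99.1 and 42.5. ESRRB, an orphan nuclear receptor gene, was lower, at 434 and 355 against 541 and 1700.3, and LY_DMSO replicate 2 stood apart from the other 3 blastocysts. ID2 lost its call without cell16_LY replicate 1 (0.91), cell16_LY replicate 2 (1.31) or LY_DMSO replicate 2 (0.61), OVOL1 without cell16_LY replicate 2 (1.10) or LY_DMSO replicate 2 (0.78), and ESRRB without cell16_LY replicate 2 (-1.14) or LY_DMSO replicate 2 (-0.46). The trophectoderm regulators CDX2, GATA3 and TEAD4 were not called. CDX2 stood at 23.2 and 17.5 against 8.34 and 12.0, GATA3 at 2739 and 2108 against 1438 and 1769, and TEAD4 at 485 and 609 against 483 and 867. The epiblast list had 0 calls in 20 tested genes, 15 of them with a log2 fold change below 0. The hypoblast list had 1 call in 22, APOA1, a lipoprotein gene, at 4823 and 2701 against 1490.0 and 582, which was lost without cell16_LY replicate 1 (1.53) or LY_DMSO replicate 2 (1.28).

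Of 19 tested intermediate filament genes 2 were higher, KRT19 and PRPH, and of 31 genes of tight junctions and blastocoel transport 2 were higher and 1 lower. PRPH, which encodes peripherin (chromosome 5, 30519199 to 30522949), had 2921 and 2920.4 normalized counts in cell16_LY and 582 and 250.4 in LY_DMSO. The treated blastocysts were nearly equal and both were far above the controls, with a log2 fold change of 2.93 ± 0.38 (adjusted p = 0.126) that held without each blastocyst. CLDN3, a claudin of tight junctions, had 297 and 206 against 139 and 22.2. CLDN23, another claudin, had 341 and 319.6 against 183 and 49.9. LY_DMSO replicate 2 was the lowest of the 4 for both claudins. PRKCI, an atypical protein kinase C of the apical polarity complex, was lower at 1870.4 and 1929 against 3172 and 4656, a log2 fold change of -1.02 ± 0.27 that is just past the threshold. CLDN3 lost its call without cell16_LY replicate 1 (1.86) or LY_DMSO replicate 2 (0.83), CLDN23 without LY_DMSO replicate 2 (0.85), and PRKCI without cell16_LY replicate 1 (-0.99) or LY_DMSO replicate 2 (-0.74).

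Other named genes were higher with small p. ANXA4, a calcium-dependent membrane-binding annexin, had 2943 and 2662 normalized counts against 946 and 659.8. TMEM40, which encodes a membrane protein, had 193 and 132 against 16.7 and 15.7. TNFSF9, the ligand of the co-stimulatory receptor 4-1BB, had 175 and 136 against 19.5 and 16.6. In each of these the 2 blastocysts of a group were close to one another. SEC24D, a cargo adaptor of vesicles leaving the endoplasmic reticulum, had 588 and 541 against 152 and 161. These 4 genes kept the call without each blastocyst.

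The contractile list split, with 2 of 34 tested genes higher and 3 lower. MYL9, a regulatory myosin light chain, had 449.9 and 255 normalized counts in cell16_LY and 841 and 771 in LY_DMSO. MYH7, a cardiac myosin heavy chain, had 0.93 and 4.67 against 44.5 and 29.6. ACTN1, an actin crosslinker, had 943 and 1227 against 1397 and 3318, with LY_DMSO replicate 2 far above the rest. FHL2, a LIM domain protein, was higher at 1741 and 1084 against 391 and 693. CRYAB, a small heat shock protein, was higher at 103 and 107 against 0 and 46.2. MYH7 kept its call without each blastocyst. MYL9 lost it without cell16_LY replicate 2 (-0.84), ACTN1 without cell16_LY replicate 1 (-0.81), cell16_LY replicate 2 (-1.19) or LY_DMSO replicate 2 (-0.38), FHL2 without cell16_LY replicate 1 (1.06) or LY_DMSO replicate 1 (0.99), and CRYAB without cell16_LY replicate 1 (3.98), cell16_LY replicate 2 (3.92) or LY_DMSO replicate 1 (1.17). Without LY_DMSO replicate 1 the list had 0 higher and 7 lower genes, and without LY_DMSO replicate 2 it had 5 and 2.

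Outside that list MYBPC3, a myosin-binding protein of heart muscle, was higher, with 168 and 209 normalized counts against 45.4 and 55.4. SSH1, LIMCH1 and ARHGAP18 were lower. SSH1, a phosphatase that activates cofilin, had 152 and 188 against 637 and 447. LIMCH1, an activator of non-muscle myosin, had 155 and 251 against 473 and 846. ARHGAP18, which switches off RhoA, had 1469.7 and 1202 against 2589.8 and 3272 and lost its call without cell16_LY replicate 2 (-0.99) or LY_DMSO replicate 2 (-0.96), whereas the other 3 kept theirs without each blastocyst.

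Few RNA reads of the inhibitor's target were found in these day 8 blastocysts. From earlier published data, the study reports that RARG expression rises from embryonic genome activation on. The level of RARγ protein was not measured here. RARG had 2 and 1 reads in the cell16_LY libraries and 4 and 0 in the LY_DMSO libraries, too few to test, and LY_DMSO over cell16_LY was 1.19 (95% counting interval 0.202 to 8.14). On the FPKM scale, which allows levels to be compared between genes, RARG reached at most 0.0487, RARA lay between 0.189 and 0.326, and RARB between 2.23 and 5.32. RARB, itself a retinoic acid target, had 162 and 128 normalized counts in cell16_LY and 195 and 307 in LY_DMSO, without overlap but also without a call (log2 fold change -0.76 ± 0.48, adjusted p = 0.751). The RXR genes were not called either, with RXRA at 9.30 and 8.16 against 13.9 and 15.7 and RXRB at 47.4 and 88.6 against 63.0 and 39.7. RXRG was not tested, with 3 reads in LY_DMSO replicate 2 and 0 in the other libraries of the comparison.

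Of 18 tested genes of retinoid metabolism, 1 was higher and 1 lower. ALDH1A3, a retinaldehyde dehydrogenase that makes retinoic acid (chromosome 21, 5628648 to 5670915), had 929.6 and 795 normalized counts in cell16_LY and 179.8 and 84.1 in LY_DMSO. The log2 fold change was 2.80 ± 0.40 (adjusted p = 0.187), and the call held without each blastocyst. RDH12, a retinol dehydrogenase gene, had 476 and 212 against 701 and 1437, a call lost without cell16_LY replicate 2 (-1.07) or LY_DMSO replicate 2 (-1.14). The response genes gave 0 calls in 13 tested, and CYP26A1 and STRA6, commonly used readouts of receptor activity, had at most 4.65 normalized counts in any of the 4 blastocysts. Of 39 HOX genes 14 were tested and 0 were called. HOXB2 had the highest log2 fold change of them, 2.08 ± 1.09 (adjusted p = 0.706), from 8.37 and 12.8 against 2.78 and 0.924 normalized counts, which are few reads.

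Of the metabolic lists, glycolysis had the most genes that were higher. Of 22 tested genes of glucose uptake and glycolysis, 6 were higher (27.3%, against 3.25% of all genes) and 0 lower. The median of the list was 0.16, and 10 of its genes had a log2 fold change below 0. TPI1, triosephosphate isomerase (chromosome 5, 103580104 to 103583461), showed the largest difference, with 7676 and 3568 normalized counts in cell16_LY against 281 and 425 in LY_DMSO. Its log2 fold change was 3.92 ± 0.51 (adjusted p = 0.126). GAPDH, the enzyme after it, had 63138 and 50675 against 22656 and 17102. PFKL, a phosphofructokinase that commits sugar to the pathway, had 892 and 738 against 374 and 254. In each of these 3 both treated blastocysts lay clearly above both controls. ENO1, an enolase, had 25780 and 15593 against 9624 and 6749.6. PGK1, phosphoglycerate kinase, had 15520 and 10834 against 6937 and 5828. LDHA, which turns pyruvate into lactate, had 26660 and 11189 against 3829 and 10155, so that cell16_LY replicate 2 was close to LY_DMSO replicate 2.

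Other steps of the pathway were not called. The glucose transporter gene SLC2A1 had 3044 and 2209 normalized counts against 3162 and 4231, and hexokinase HK2 had 1467 and 1425 against 1608 and 1342. PGAM1, the mutase between PGK1 and ENO1, had 14103 and 11507 against 14152 and 17706. Pyruvate kinase PKM had 12805 and 12573 against 12615 and 14605. The groups overlapped or nearly touched for these genes. TPI1, GAPDH and PFKL kept the call without each of the 4 blastocysts. ENO1 lost it without cell16_LY replicate 1 (0.95), PGK1 without cell16_LY replicate 1 (0.77) or LY_DMSO replicate 2 (0.90), and LDHA without cell16_LY replicate 1 (0.84) or LY_DMSO replicate 1 (0.77). PGK1 is on the X chromosome. An alternative fit, chosen after seeing the data, took the presence of Y-linked reads as a term. The list again had 6 higher and 0 lower genes. Each group held 1 blastocyst with and 1 without such reads, so the term cannot change these log2 fold changes. The part of embryo sex was therefore not tested by it.

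**Figure D3:**
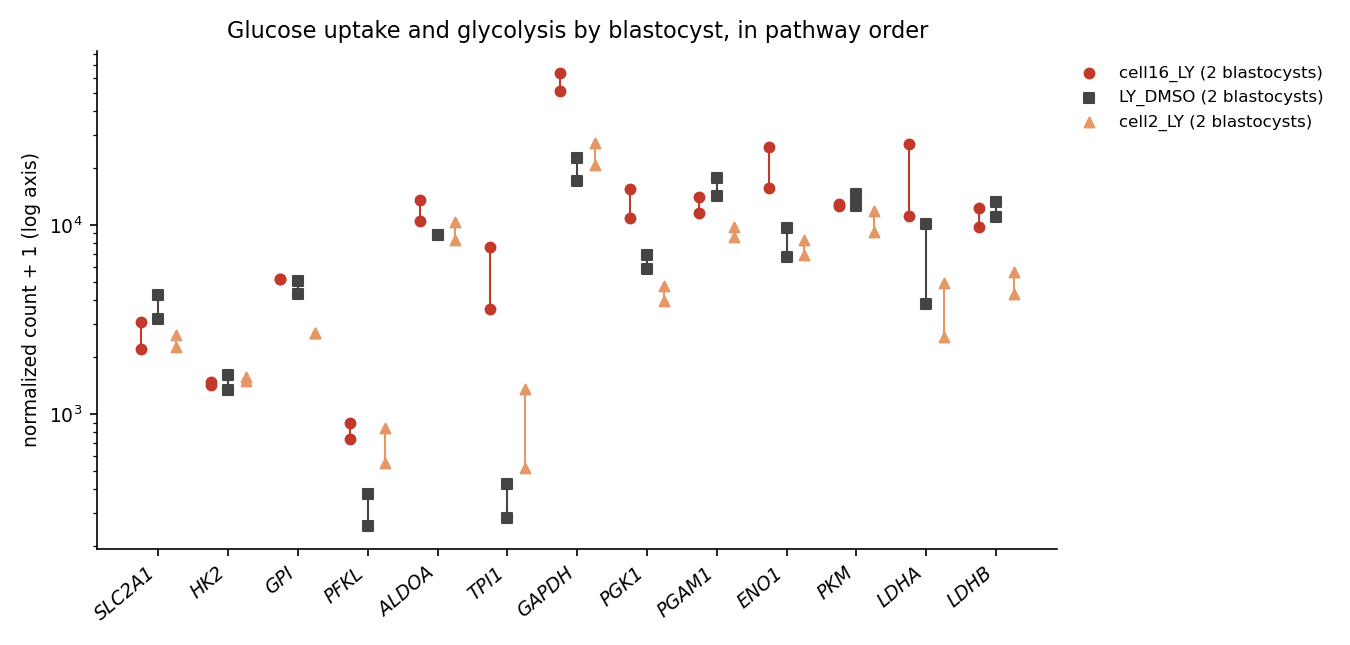
Normalized count + 1 on a log axis for 13 genes of glucose uptake and glycolysis in the order of the pathway, with 1 point per blastocyst and a line joining the 2 of a group. TPI1 shows the widest gap between cell16_LY and LY_DMSO, and GAPDH, PFKL, PGK1 and ENO1 are also separated. LDHA is separated only narrowly, with cell16_LY replicate 2 close to LY_DMSO replicate 2. For SLC2A1, HK2, PGAM1 and PKM, which were not called, the groups overlap or nearly touch.

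HIF-1 is the oxygen-regulated factor known for driving several glycolytic genes, and its other targets were listed separately. Of 28 tested, 4 were higher and 0 lower. The median was 0.35 on the log2 scale, with 22 genes (78.6%) above 0, against 49.5% of all genes. ANKRD37, an ankyrin repeat gene, had 95 reads over the cell16_LY libraries and 2 over the LY_DMSO libraries, a 53.1-fold difference (95% counting interval 14.3 to 444.9). BHLHE40, a transcriptional repressor that also acts in the circadian clock, had 557 and 464 normalized counts against 113 and 244. RORA, a nuclear receptor gene, had 163 and 80.5 against 11.1 and 63.8, with a wide gap between the controls. HIF1A itself was not called, at 1778 and 1151 against 721 and 1480.4, nor were VEGFA (245 and 159 against 145 and 105) and CA9 (201 and 124 against 146 and 134). BHLHE40 kept its call without each blastocyst. ANKRD37 lost it without cell16_LY replicate 1 (4.59), and RORA without cell16_LY replicate 1 (1.54) or LY_DMSO replicate 1 (0.83). The list had 1 higher gene and a median of 0.13 without cell16_LY replicate 1, and 7 higher genes and a median of 0.63 without cell16_LY replicate 2.

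Most nuclear genes of mitochondrial energy metabolism had log2 fold changes slightly below 0, and few were called. Of 73 nuclear genes of the respiratory chain 62 had a log2 fold change below 0, with a median of -0.27, 0 higher calls and 2 lower calls. NDUFV1, the NADH-binding subunit of complex I, had 630.3 and 859.5 normalized counts in cell16_LY and 1543 and 1699 in LY_DMSO (log2 fold change -1.14 ± 0.27). UQCRC1, a core subunit of complex III, had 1866 and 2406 against 5029 and 3877. NDUFV1 lost its call without cell16_LY replicate 1 (-0.91), and UQCRC1 without cell16_LY replicate 1 (-0.88) or LY_DMSO replicate 1 (-0.87). The 13 genes encoded on mitochondrial DNA had 0 calls and a median of 0.08. Reads on the mitochondrial chromosome made up 9.56% and 8.65% of reads on genes in cell16_LY and 8.44% and 7.90% in LY_DMSO. Of 32 genes of pyruvate dehydrogenase and the TCA cycle, 24 were below 0, with a median of -0.24 and 0 calls.

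Single genes linked to mitochondria moved further. TIMM17A, a subunit of the inner membrane import channel, had 64.1 and 121 normalized counts in cell16_LY and 272 and 414 in LY_DMSO. PPM1K, the phosphatase that activates branched-chain keto acid dehydrogenase, had 326 and 304 against 743 and 1334. ME1, the cytosolic malic enzyme that supplies NADPH, went the other way, with 79.9 and 154 against 0.927 and 5.54 and a log2 fold change of 4.98 ± 0.85. All 3 calls held without each blastocyst. In the pentose phosphate pathway, the other main source of NADPH, 7 of 9 genes were below 0 and 0 were called.

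Several amino acid response genes were lower in the treated blastocysts. The integrated stress response, through which the factor ATF4 raises amino acid uptake and synthesis, had 23 tested genes, of which 6 were lower (26.1%, against 1.97% of all genes) and 0 higher. CHAC1, an enzyme that breaks down glutathione, had 28.8 and 50.1 normalized counts in cell16_LY and 379 and 416 in LY_DMSO. Its log2 fold change of -3.35 ± 0.99 (adjusted p = 0.552) kept the call without each blastocyst. ATF4 itself had 2653 and 3884 against 8003 and 6197. The pseudokinase gene TRIB3 had 85.5 and 93.3 against 243 and 255. Asparagine synthetase, ASNS, had 1399 and 3186 against 4773 and 3867, and here cell16_LY replicate 2 came near the controls. SLC3A2, the heavy chain of amino acid transporters, had 1219 and 2267 against 2929 and 4473. SLC7A1, a transporter of arginine and lysine, had 16.7 and 64.1 against 133 and 132. DDIT3 (412 and 1031 against 849.7 and 762) and PPP1R15A (181 and 227 against 187 and 302), which act later in the same response, were not called.

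These calls depended on single blastocysts. The 6 became 1 without cell16_LY replicate 1, 10 without cell16_LY replicate 2, 2 without LY_DMSO replicate 1 and 4 without LY_DMSO replicate 2. ATF4 lost its call without cell16_LY replicate 1 (-0.86) or LY_DMSO replicate 1 (-0.95), ASNS without cell16_LY replicate 1 (-0.43) or LY_DMSO replicate 1 (-0.87), and SLC3A2 without cell16_LY replicate 1 (-0.67) or LY_DMSO replicate 2 (-0.82). SLC7A1 lost it without cell16_LY replicate 1 (-1.04), LY_DMSO replicate 1 (-1.97) or LY_DMSO replicate 2 (-1.98), and TRIB3 without any 1 of the 4 (-1.41, -1.53, -1.50 and -1.43 in the order of treated and then vehicle replicates).

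In the list of glycine, serine and one-carbon metabolism, 2 of 20 genes were lower, 15 were below 0 and the median was -0.53. Both calls were members of the glycine cleavage system. AMT, the aminomethyltransferase, had 339 and 362 normalized counts against 733 and 1453. GCSH, the lipoylated carrier protein, had 2200.4 and 1821 against 4575 and 9414. Both were lost without LY_DMSO replicate 2 (-1.06 and -1.19). YARS1 was the only call among 37 aminoacyl-tRNA synthetase genes, at 753 and 1351 against 2058 and 2147, and 27 of the 37 were below 0. YARS1 lost its call without cell16_LY replicate 1 (-0.64) or LY_DMSO replicate 2 (-1.03).

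**Figure D4:**
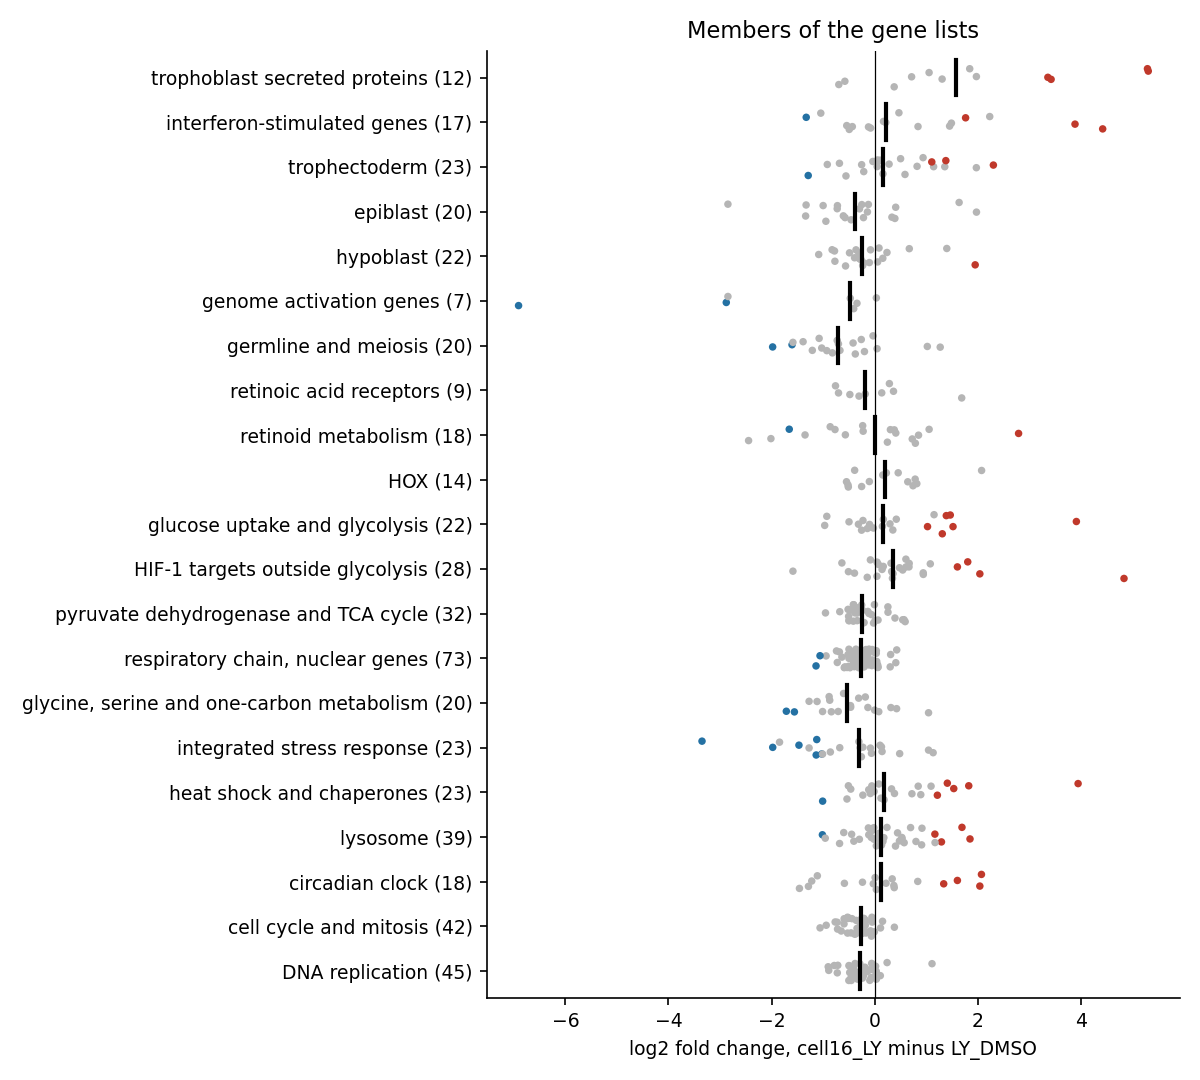
Log2 fold changes of cell16_LY over LY_DMSO for the tested members of 21 of the gene lists, with the number tested in parentheses. Points are genes, red where called higher and blue where called lower, with a random vertical offset for visibility, and the black bar is the median. It is 1.58 for the secreted trophoblast proteins, a value that the filter can raise, and between -0.71 and 0.35 for the others drawn. Among the lists not drawn, medians reached -1.07 for maternal oocyte genes and 0.70 for cumulus genes.

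Over both lipid lists, 4 of 40 tested genes were higher and 1 was lower. ELOVL2, an elongase of long polyunsaturated fatty acids, had 32.5 and 30.3 normalized counts in cell16_LY and 3.71 and 3.70 in LY_DMSO. HACD1, a dehydratase of the elongation cycle, had 128 and 92.1 against 10.2 and 43.4. CIDEA, a protein that fuses lipid droplets, had 97.6 and 85.1 against 38.9 and 16.6. The levels of these 3 were low in all blastocysts. ABHD5, the activator of the triglyceride lipase ATGL, had 410.0 and 374 against 196 and 175. PLIN2, the main coat protein of lipid droplets, was lower at 2323 and 2291 against 3578 and 6441. ELOVL2 lost its call without cell16_LY replicate 1 (2.74) or cell16_LY replicate 2 (2.83), HACD1 without cell16_LY replicate 1 (2.06) or LY_DMSO replicate 1 (1.30), CIDEA without cell16_LY replicate 1 (1.70), cell16_LY replicate 2 (1.89) or LY_DMSO replicate 2 (1.21), ABHD5 without cell16_LY replicate 1 (1.01) or LY_DMSO replicate 2 (0.99), and PLIN2 without LY_DMSO replicate 2 (-0.63). The 23 genes of cholesterol synthesis had 0 calls.

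Of 39 lysosome genes 4 were higher and 1 lower. CD63, a tetraspanin of late endosomes and exosomes, had 10542 and 8516 normalized counts against 2202 and 3879. ARSB, a sulfatase that degrades glycosaminoglycans, had 984 and 468 against 214 and 164. ASAH1, acid ceramidase, had 1625 and 1403 against 705 and 637. These 3 calls held without each blastocyst. The protease gene CTSD had 609 and 226 against 139 and 163. CTSC, another cathepsin gene, was lower at 522 and 321 against 675 and 1012. CTSD lost its call without cell16_LY replicate 1 (0.59), LY_DMSO replicate 1 (1.19) or LY_DMSO replicate 2 (1.41), and CTSC without cell16_LY replicate 2 (-0.66) or LY_DMSO replicate 2 (-0.72).

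Of 40 genes of glutathione and antioxidant defence 3 were higher and 1 lower. MGST1, a membrane glutathione transferase, had 659 and 364 normalized counts against 223 and 122. GSTP1, a soluble transferase, had 47.4 and 21.0 against 8.34 and 4.62. SRXN1, which repairs peroxiredoxins, had 84.6 and 47.8 against 3.71 and 21.3. All 3 were highest in cell16_LY replicate 1. GSTM3, another glutathione transferase, had 2 reads over the cell16_LY libraries and 291 over the LY_DMSO libraries, a 130.1-fold difference (95% counting interval 35.7 to 1080). The LY_DMSO blastocysts differed from each other in GSTM3, at 31.5 and 237 normalized counts. MGST1 lost its call without cell16_LY replicate 1 (1.14), GSTP1 without cell16_LY replicate 1 (1.60) or LY_DMSO replicate 2 (1.80), SRXN1 without cell16_LY replicate 1 (2.25) or LY_DMSO replicate 1 (1.54), and GSTM3 without LY_DMSO replicate 2 (-4.15). Outside the list the metalloreductase gene STEAP4 was higher, at 273 and 37.3 against 1.85 and 3.70, and lost its call without cell16_LY replicate 1 (3.39).

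Of 23 heat shock and chaperone genes 5 were higher and 1 lower, with a median of 0.18. HSPA1A, the inducible HSP70, had 1834 and 3056 normalized counts against 405 and 1095, and its call held without each blastocyst. BAG3, a co-chaperone of HSP70, had 256 and 559 against 93.6 and 179. HSP90B1, a chaperone of the endoplasmic reticulum, had 12348 and 15789 against 11463 and 3137. DNAJB9, a co-chaperone of the same compartment, had 8617 and 6112 against 4179 and 1778. For both, LY_DMSO replicate 2 stood far below the other 3 blastocysts. The fifth higher gene was CRYAB, given above. HSPA2 was lower, at 538 and 339 against 667 and 1109.8. CALR, calreticulin, was the only call among 28 genes of antigen presentation, at 19181 and 21166 against 13553 and 4999. BAG3 lost its call without cell16_LY replicate 2 (0.97) or LY_DMSO replicate 1 (1.07), and HSP90B1 without cell16_LY replicate 1 (1.40), cell16_LY replicate 2 (1.04) or LY_DMSO replicate 2 (0.28). DNAJB9 lost it without cell16_LY replicate 1 (1.17) or LY_DMSO replicate 2 (0.80), HSPA2 without cell16_LY replicate 2 (-0.68) or LY_DMSO replicate 2 (-0.64), and CALR without cell16_LY replicate 2 (1.22) or LY_DMSO replicate 2 (0.57).

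TP53I3, a quinone oxidoreductase gene and p53 target, was higher, with 366 and 293 normalized counts against 75.1 and 71.2, a call that held without each blastocyst. BAX, which permeabilizes the mitochondrial outer membrane in apoptosis, was not called, at 88.3 and 79.3 against 107 and 309.6 (log2 fold change -1.12 ± 0.53, adjusted p = 0.679).

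Of 18 clock genes 4 were higher, BHLHE40 and RORA among them. The repressor gene CRY1 had 447 and 268 normalized counts against 136 and 136, and CIART, another repressor of the clock, had 193 and 71.1 against 30.6 and 24.0. CRY1 lost its call without cell16_LY replicate 1 (0.97), and CIART without cell16_LY replicate 1 (1.36), LY_DMSO replicate 1 (2.24) or LY_DMSO replicate 2 (1.91). Of 34 Wnt pathway genes 1 was higher, the receptor gene FZD1 (29.7 and 53.6 against 17.6 and 0.924), lost without cell16_LY replicate 1 (3.19), cell16_LY replicate 2 (2.36) or LY_DMSO replicate 2 (1.14). CYP11A1, which makes pregnenolone from cholesterol in steroid-forming cells, was the only call in the cumulus list, at 2378 and 555 against 108 and 478, and was lost without cell16_LY replicate 1 (1.28) or LY_DMSO replicate 1 (1.26).

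Among 7 tested genes in a list for embryonic genome activation, most of them homeobox or zinc finger genes, 2 were lower and 0 higher. DUXA, a double homeobox gene of embryonic genome activation (chromosome 18, 64398298 to 64403851), had 0 reads in both cell16_LY blastocysts and 391 over the LY_DMSO blastocysts, so that it was at least 116.6-fold lower, with the treated group set at 3 reads in all. In LY_DMSO it stood at 318 and 44.4 normalized counts. ARGFX, another homeobox gene of the same period, had 8.37 and 68.8 against 104 and 336, and the other 5 members were not called. LOC510631 and LOC538435, both described as similar to the splicing factor gene HNRNPA2B1 and named here after their values were seen, were lower too. LOC510631 had 0 reads in cell16_LY and 421 in LY_DMSO, at least 125.5-fold lower, and LOC538435 had 16.7 and 7.00 normalized counts against 165 and 814. DUXA kept its call without each blastocyst, and ARGFX lost it without cell16_LY replicate 1 (-1.43) or LY_DMSO replicate 2 (-2.04).

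BRDT, a bromodomain gene known from the testis (chromosome 3, 51385725 to 51443014), had the smallest p of the lower genes with a proper name, with 189.6 and 199 normalized counts in cell16_LY and 813 and 728 in LY_DMSO (log2 fold change -1.98 ± 0.30, adjusted p = 0.206). SYCP2, of the synaptonemal complex, had 125 and 98.0 against 149 and 761, and 17 of 20 tested germline genes were below 0. ZAR1L was the only call among 6 tested maternal oocyte genes, at 61.4 and 88.6 against 145 and 199, and all 6 had a log2 fold change below 0. The summed level of the 25 oocyte genes in the table was 2585 and 3680 in cell16_LY and 5538 and 6382 in LY_DMSO, most of it DPPA3, which epiblast cells also express. Of the defining oocyte genes ZP4 was at 0 in all 4 libraries and GDF9 had at most 10.5 normalized counts. BRDT kept its call without each blastocyst, ZAR1L lost it without cell16_LY replicate 1 (-0.93) or LY_DMSO replicate 2 (-0.96), and SYCP2 without cell16_LY replicate 1 (-1.77), cell16_LY replicate 2 (-1.43) or LY_DMSO replicate 2 (-0.43).

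Other named genes stood among the lower ones with the smallest p. NAA40, a histone N-terminal acetyltransferase, had 274 and 258 normalized counts against 505 and 633. RRP9, of the U3 small nucleolar ribonucleoprotein, had 165 and 205 against 369 and 517. HIP1, a clathrin adaptor, had 741 and 1087 against 2147 and 1832. The controls were close to one another in these 3 genes. TTC12, a dynein assembly factor, had 54.8 and 35.0 against 175 and 143. BRB, a brain ribonuclease, had 156 and 113 against 338 and 826. TTC12 and BRB kept the call without each blastocyst, NAA40 lost it without LY_DMSO replicate 2 (-0.92), RRP9 without cell16_LY replicate 1 (-1.08), and HIP1 without cell16_LY replicate 1 (-0.87).

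Some lists had next to no calls. CCL26 was the only one in 26 tested cytokine, chemokine and receptor genes, at 1.86 and 8.16 normalized counts against 25.9 and 55.4, and it was lost without cell16_LY replicate 1 (-2.09) or LY_DMSO replicate 2 (-2.40). That list had 5 higher and 0 lower calls without LY_DMSO replicate 2, 5 and 1 without cell16_LY replicate 2, and 0 and 2 without LY_DMSO replicate 1. Cell cycle genes had a log2 fold change below 0 in 39 of 42 (median -0.25) and DNA replication genes in 37 of 45 (median -0.29), with 0 calls in either list. Of 22 Notch pathway genes 0 were called.

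Among models without a proper name, one on chromosome 19 (27210238 to 27218497), whose description names similarity to an endogenous retrovirus envelope protein, had the smallest p of all genes. It had 1154 and 1591 normalized counts in cell16_LY and 170.5 and 151 in LY_DMSO (log2 fold change 3.07 ± 0.32, adjusted p = 0.0604). A model on chromosome 3 (58791764 to 58792858) had 116 and 135 against 5.56 and 7.39. LOC132344761, on an unplaced sequence, was lower, with 111 and 32.7 against 549 and 802. Another unplaced model was lower as well, at 250.1 and 176 against 961 and 2630.0, and a further one stood at 46.5 and 54.8 against 214 and 318. These 5 calls held without each blastocyst.

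Whether a difference belongs to the later start of treatment was tested directly, as cell16_LY against cell2_LY in the same fit, since both would otherwise be set against the same LY_DMSO blastocysts. By the same threshold 1649 genes differed (11.3% of those tested), 810 higher and 839 lower in cell16_LY. None had an adjusted p under 0.05 by limma (smallest 0.186), with 2596 genes at an unadjusted p under 0.05. Both cell2_LY blastocysts had Y-linked reads and 1 of the cell16_LY blastocysts had none, so the presence of a Y chromosome and the start of treatment are partly confounded in this contrast. Both contrasts use the same cell16_LY libraries, so that genes picked in one are not independent in the other. Of the 6 libraries, cell2_LY replicate 1 had the fewest reads on genes (11336091) and lay farthest out on the first principal component. The library size implied by its FPKM values was 1.23 times its reads on genes, against 1.04 in cell2_LY replicate 2. The part of this library in the direct calls was not tested.

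TPI1 had 1349 and 514 normalized counts in cell2_LY and was higher in cell16_LY by a log2 fold change of 2.65 (adjusted p = 0.186). PAG11 had 77.5 and 33.5 and IFNT3 543 and 665, with direct log2 fold changes of 3.02 (adjusted p = 0.186) and 3.11 (adjusted p = 0.193). LDHA (2558 and 4942) and PGK1 (3931 and 4739.5) were also higher in cell16_LY in the direct test, by 2.28 and 1.59 (adjusted p = 0.193 and 0.186). PRPH, ALDH1A3 and BRDT were not called in the direct test. PRPH had 5937 and 5102 normalized counts in cell2_LY and a direct log2 fold change of -0.91 (adjusted p = 0.261). ALDH1A3 had 946 and 656 in cell2_LY and a direct difference of 0.13 ± 0.40 (SE) on the log2 scale. BRDT had 204 and 178 and a direct difference of 0.03 ± 0.30. RARB was lowest in cell2_LY, at 21.8 and 39.5, a direct log2 fold change of 2.25 (adjusted p = 0.191). DUXA had 27.3 and 0.986 in cell2_LY.

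The LY10 experiment shares no library with this comparison, and 12763 genes were tested in both tables. Of these, 6.78% were called higher and 7.00% lower in LY10 against DMSO by the same threshold. Of the 402 genes higher in cell16_LY that were tested there, 16 were also higher in LY10 (3.98%) and 65 were lower (16.2%). Their LY10 log2 fold changes had a median of -0.49. Of the 234 lower genes, 23 were also lower in LY10 (9.83%) and 35 were higher (15%), with a median of 0.25. Beside these, 50.6% of all genes tested in both had a LY10 log2 fold change above 0, against 33.1% of the 402 higher genes. DUXA was lower in both experiments, with a LY10 log2 fold change of -8.77 (adjusted p = 0.00751). So were GSTM3 (-6.31), CCL26 (-3.05), ARGFX (-3.41), TIMM17A (-1.21) and LOC538435 (-5.79, adjusted p = 0.0422). ENO1 was higher in both (1.22 in LY10), GAPDH stood at 0.98 (adjusted p = 0.118) without a call, and TPI1 was lower (-1.05). LY10 and cell2_LY share the 2-cell start. List medians of cell2_LY over LY_DMSO and of LY10 over DMSO were opposed for some lists, such as DNA replication (-0.74 and 0.64) and TCA cycle genes (-0.65 and 0.61). For other lists they had the same sign, such as cholesterol synthesis (0.66 and 1.04), nuclear respiratory chain genes (-0.50 and -0.36) and germline genes (-1.24 and -1.19). These medians were not compared by a test. Between cell16_LY and LY10 the start of treatment, the vehicle embryos and the table differ, and the concentration of cell16_LY is not stated. Their parts in the difference between cell16_LY and LY10 cannot be told apart.

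**Figure D5:**
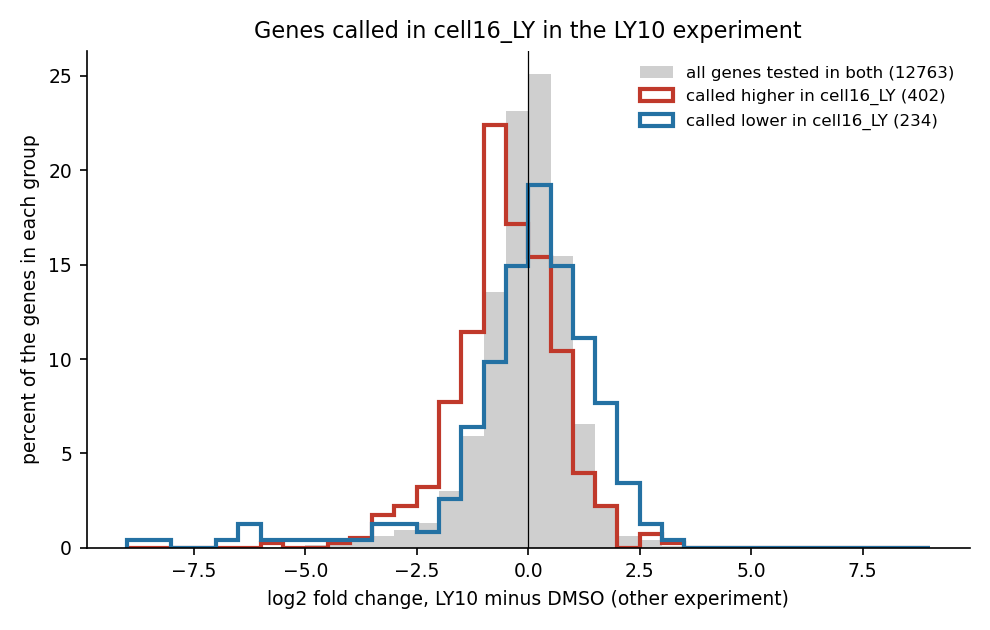
Distribution of log2 fold changes of LY10 over DMSO, in bins of 0.5, as a percentage of each gene group. Grey is all 12763 genes tested in both tables, red the 402 called higher and blue the 234 called lower in cell16_LY, and the red outline lies left of 0 (median -0.49) while the blue lies slightly right (median 0.25) with a tail of strongly lower genes.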

How the data were processed

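Single day 8 blastocysts were sequenced by the authors after SMART-Seq amplification on an Illumina NovaSeq instrument. Per the labels and the methods, reads were aligned with HISAT2 2.0.5 (STAR is also named) and counted per gene with featureCounts 1.5.0-p3, and the authors deposited FPKM values, which divide counts by gene length and library size. The strand setting of the counting and the genome build are not given in the sources used here. Of 36267 gene IDs found in the RefSeq annotation of ARS-UCD2.0, 98.7% had the same start and end, and positions are those of the table. The deposited columns of fold changes and p-values, which the authors made with DESeq2 1.20.0, and the embryonic stem cell table were not used.

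FPKM times gene length gave whole reads for 100% of values within 0.02 reads. Reads were scaled from the library size implied by the FPKM values to a common size, the geometric mean over the libraries of a table, and log2(normalized count + 1) was fitted with limma 3.58.1 (lmFit, eBayes with trend, R 4.3.3) over cell16_LY, LY_DMSO and cell2_LY, 2 libraries each, for genes with a mean of at least 10. The scaling does not depend on the other libraries, and a pseudocount of 1 understates the change of low genes. A gene was called at an unadjusted p under 0.05 with a log2 fold change beyond 1 in either direction. Benjamini-Hochberg adjustment was over all genes tested. The LY10 and DMSO table was fitted in the same way. A group with no reads was set at a limit of 3 reads over the group, and ratios of 1 to 3 reads carry exact 95% intervals. Both cover counting error only, since the reads carry no molecular identifiers. The fit was tested on simulated data.

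Named genes were the 15 with the smallest p in each direction among called genes with a proper name, a mean of at least 50 and groups that do not overlap, up to 3 models per direction without a proper name, the retinoid receptors, genes that the study names for this comparison, and the called, highest and lowest genes of 41 gene lists. Other list members, the further family models and the genes called in both experiments were picked after their values were seen. Some called members of the lists are not reported here. The comparison and the lists were chosen with earlier results of these data known. The 20 alternatives concerned the pseudocount, the filter, the scaling, sample and voom weights, the replicate number as a block, a fit of the 2 groups alone, the X and Y genes, the presence of Y-linked reads and each library of the table left out.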

Additional observations from a re-analysis of the deposited data

Results flagged for a closer look

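For 24 of the 89 called and named genes considered here that were also tested in the LY10 experiment, both cell16_LY blastocysts lay on one side of both LY_DMSO blastocysts while all 3 LY10 blastocysts lay on the opposite side of all 3 DMSO blastocysts. This pattern was shown by 9.17% of the 12763 genes tested in both tables and by 120 of the 636 genes called in cell16_LY (18.9%). The groups lay apart in the same direction in both experiments for 3.75% of all genes and 42 of the 636 called ones. In every called gene cell16_LY and LY_DMSO do not overlap, against 42.9% of all genes tested in that comparison. The shares among called genes, named ones included, are raised by this selection and cannot be set against those over all genes. The difference between the experiments was not tested, because the tables were normalized separately. By the threshold used here, 20 of the 24 were also called in the opposite direction in LY10. Values below are log2 fold changes against the vehicle group of each experiment.

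Of the 6 integrated stress response genes called lower in cell16_LY, 4 had every LY10 blastocyst above every DMSO blastocyst. ATF4 was at -1.13 in cell16_LY and 1.55 in LY10, CHAC1 at -3.35 and 2.63, ASNS at -1.02 and 1.78, and SLC3A2 at -1.12 and 1.97. The tyrosyl-tRNA synthetase gene YARS1, of another list, was at -1.06 and 1.76. The respiratory chain genes NDUFV1 (-1.14 and 1.39) and UQCRC1 (-1.06 and 2.23) showed the same opposition. So did HSPA2 (-1.01 and 1.67), SSH1 (-1.65 and 1.68), RRP9 (-1.24 and 1.22), TTC12 (-1.83 and 1.09), HIP1 (-1.14 and 0.72) and LOC132344761 (-3.44 and 2.46).

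Of the 3 interferon-stimulated genes called higher in cell16_LY, HERC6 and EIF2AK2 had every LY10 blastocyst below every DMSO blastocyst, with HERC6 at 4.43 in cell16_LY and -5.65 in LY10 and EIF2AK2 at 1.77 and -1.87. The chaperone genes HSPA1A (1.83 and -2.83), BAG3 (1.54 and -2.47) and DNAJB9 (1.41 and -0.85) went the same way. The metabolic genes ME1 (4.98 and -2.68) and TPI1 (3.92 and -1.05) did so too, as did FZD1 (2.78 and -1.59), OVOL1 (1.38 and -0.83), SEC24D (1.84 and -1.33) and TMEM40 (3.22 and -2.68).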

How the results depend on the processing

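Beside the 472 genes higher in cell16_LY, 263 were higher on log2(FPKM + 1), and leaving out 1 library of the table in turn gave 175 to 810. Beside the 286 lower genes, 541 were lower with no filter and 186 with a mean of at least 50, and leaving out 1 library gave 175 to 547, of which 179 was without LY_DMSO replicate 2. No gene had an adjusted p under 0.05 as reported, against 3 with sample weights and 2 with the X and Y genes left out, and leaving out 1 library gave 0 to 7. The cause of these shifts was not tested. With the presence of Y-linked reads as a term, an alternative chosen after seeing the data, 491 genes were higher, 307 lower and 0 had an adjusted p under 0.05. That term alters the estimate of the spread but not the log2 fold changes, since cell16_LY and LY_DMSO each held 1 blastocyst with such reads. With a replicate block 492 genes were higher, 298 lower and 7 had an adjusted p under 0.05. Same-numbered libraries did not deviate together in all pairs of groups (r = -0.23 for cell16_LY and LY_DMSO), so the numbers were not taken as a pairing. Of the 101 called genes among the 153 named, 0 changed sign in any setting, 40 kept the call without each of the 4 blastocysts and 38 in all 20 settings. Uncalled genes changed sign when 1 library was left out. The log2 fold changes then ran from -2.16 to 1.02 for ACOT2, -0.95 to 0.07 for AXIN2, -0.45 to 3.57 for CASP8, -0.14 to 0.91 for FOXM1, -0.05 to 0.99 for HIF1A, -1.10 to 0.01 for HOXC10, -1.52 to 0.13 for IFN-TAU, -0.14 to 0.21 for NFYA, -0.04 to 1.00 for PRPS2, -0.01 to 0.59 for RARA, -0.08 to 0.81 for RXRB and -1.05 to 0.03 for ZAR1. With 2 blastocysts per group, the genes with few reads, RARG among them, could not be compared at this depth.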
